A study of Mus musculus with 6 samples.

Results

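The genes described here are those of the cytosolic ribosomal proteins, the protein components of the ribosomes that translate messages in the cytoplasm. They were chosen by name: every array probe whose RefSeq transcript belongs to a gene called Rpl or Rps followed by a number, or to Rplp0, Rplp1, Rplp2 or Rpsa, without the Rps6k kinases, pseudogenes with a -ps suffix and predicted genes. That rule found 84 of the 18753 named genes on the array, with 122 of its 41174 probes. Of these, 51 encode proteins of the large subunit or their variants and 32 proteins of the small subunit or their variants. The remaining gene, Rps19bp1, encodes a protein that binds Rps19 and is no ribosomal protein, so it entered neither subunit's median. All 84 genes passed the filter on dim probes, and 120 of the 121 tested probes were well above background on all 6 arrays.

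The samples were mouse cells of strain 129/Ola, differentiated from embryonic stem cells on gelatin in the serum-free medium N2B27 and labelled as day 3. For 24 h, 3 samples received the solvent DMSO and 3 received TSA (trichostatin A), which blocks histone deacetylases; no dose is given in the labels. The 3 samples of a treatment came from independent experiments, and each slide held the DMSO and the TSA sample of the same replicate number, always at the same array position for a treatment, so treatment and position cannot be told apart. The cells are a mixture, and in such bulk samples fewer cells of a type and less RNA per cell cannot be told apart.

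Ribosomal protein genes are among the most strongly expressed genes of dividing cells, and their products are made in matching amounts because each ribosome takes 1 copy of nearly every protein. Many of their messages begin with a run of pyrimidines, the terminal oligopyrimidine (TOP) tract, through which growth signals set their translation, and their promoters often carry sites for factors of the ETS family such as GABP. A few family members have variant paralogs with a narrower range of tissues. Rpl39l, for example, is an autosomal paralog of the X-linked Rpl39 best known from male germ cells, and both proteins line the tunnel through which the new protein leaves the ribosome.

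No member was called in either direction without the slide in the fit, and the variant Rpl39l was the only member called with it. Of the 84 genes, 0 were called in TSA against DMSO by limma (adjusted p under 0.05), where 1.41% of the 14533 tested genes were called, 1.36% higher and 0.055% lower. A single member, Rpl39l, had an unadjusted p under 0.05, against 14.9% of all tested genes. With the slide as a block, 1 member was called, Rpl39l, which was higher in TSA. In that fit 3.34% of all tested genes were called, 3.20% higher and 0.144% lower. For 84 genes, 0 and 1 calls lie near the shares of 1.41% and 3.34% and do not set the family apart. By unadjusted p under 0.05 the blocked fit held 2 members, Rpl39l and Rpl31 (limma's unadjusted p = 0.0342 for Rpl31), against 22.9% of all tested genes.

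Promoter sequences are shown for Rpl39l, for its parent Rpl39, and for Rpl31 and Rpl22l1, both among the members with the lowest differences, because the results below turn on these genes. Each runs from 150 bases before to 20 bases after the annotated start, 5′ to 3′ on the gene's strand, with RefSeq's sequence of build GRCm38.p6. Capitals mark the motifs, which were searched on both strands. The core bound by ETS factors and GABP was spelled CCGGAAG. The core bound by the factor YY1 was spelled AAGATGGC. For the Sp family the letters searched were GGGCGG. For the TATA box of core promoters the letters searched were TATAAA. The TOP tract was searched on the sense strand only, as a C followed by at least 6 pyrimidines that begins within 10 bases of the start.
Rpl39l, chr16:10170078-10170247, plus strand: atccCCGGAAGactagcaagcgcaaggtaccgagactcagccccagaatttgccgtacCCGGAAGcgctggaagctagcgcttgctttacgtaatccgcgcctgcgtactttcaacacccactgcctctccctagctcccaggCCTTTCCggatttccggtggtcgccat
Rpl39, chrX:37085203-37085372, minus strand: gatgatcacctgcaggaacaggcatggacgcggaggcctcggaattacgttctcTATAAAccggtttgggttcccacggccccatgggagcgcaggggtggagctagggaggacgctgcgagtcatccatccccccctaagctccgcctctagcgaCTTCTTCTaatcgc
Rpl31, chr1:39367701-39367870, plus strand: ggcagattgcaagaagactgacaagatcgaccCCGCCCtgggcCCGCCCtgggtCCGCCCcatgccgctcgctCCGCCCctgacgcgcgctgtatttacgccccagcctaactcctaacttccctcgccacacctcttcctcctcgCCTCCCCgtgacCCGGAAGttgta
Rpl22l1, chr3:28805358-28805527, plus strand: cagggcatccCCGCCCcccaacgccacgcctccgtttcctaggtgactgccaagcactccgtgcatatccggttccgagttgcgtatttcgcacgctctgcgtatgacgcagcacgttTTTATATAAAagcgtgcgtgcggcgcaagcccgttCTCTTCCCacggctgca
The Rpl39l window holds the ETS core on the sense strand 146 and 92 bases before the start, and a TOP tract that begins 7 bases before it. In the Rpl39 window the TATA letters lie 96 bases before the start and the pyrimidine run begins at base 7. Rpl31 holds the Sp core 4 times, all antisense, and an ETS core at base 9. Rpl22l1 holds an antisense Sp core 140 bases before the start. Its TATA letters lie 28 bases before the start on the sense strand and overlap the antisense match at 32 bases.

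Over the family, 64 of the 84 genes matched the promoter table, with 76 promoters that run from 250 bases before to 50 after the start. A TOP tract was found in 30 of them (39.5%), against 12.2% of all 32851 promoters in the table and 12.7% of the promoters of tested genes. The ETS core was found in 27 (35.5%), against 8.86% of all promoters and 15.2% of those of tested genes. The YY1 core was found in 8 (10.5%), against 2.75% of all promoters and 3.87% of those of tested genes. The Sp core was about as frequent as in tested genes (60.5% and 59.5%) and TATA letters were in 9.21%, against 8.37% of tested genes. By subunit, the TOP tract was in 18 of 46 large and 12 of 29 small subunit promoters and the ETS core in 15 and 12. These are letter matches at annotated starts, described without a test.

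**Figure D1:**
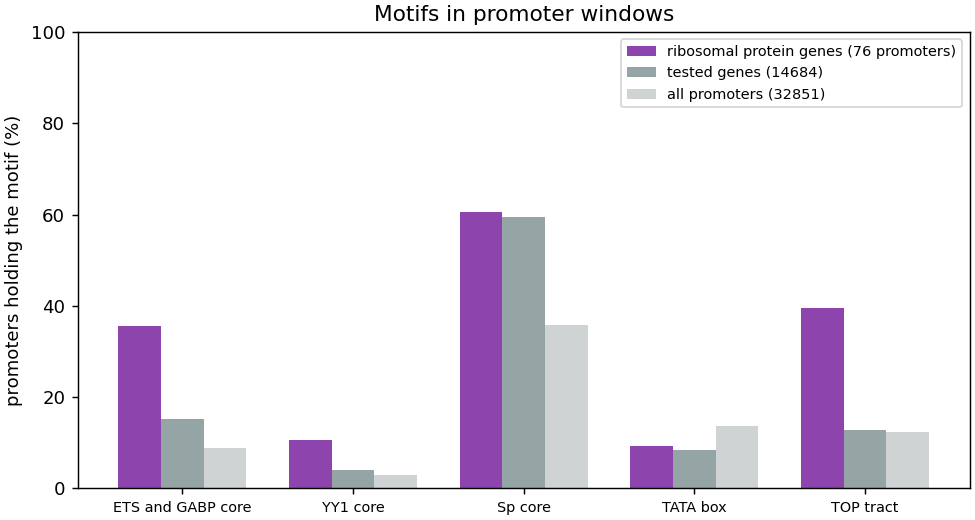
Share of promoters (%, vertical axis) that hold each searched motif from 250 bases before to 50 after the start, for 76 promoters of ribosomal protein genes, 14684 of tested genes and all 32851 in the table. The TOP tract and the ETS and GABP core stand out in the family, at 39.5% and 35.5%.

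Levels are given on the log2 scale relative to the 75th percentile of each array. Differences are TSA minus DMSO ± the limma standard error of the fit without the slide block (n = 3 arrays in each group). Intervals and adjusted p-values are also of that fit, which does not use the pairing within slides, unless the block is named. Rpl39l was at -0.08, -1.48 and -1.81 in DMSO replicates 1, 2 and 3 and at 1.72, 0.71 and 0.07 in the same replicates of TSA. Every TSA array was above every DMSO array, but the gap between the highest DMSO array and the lowest TSA array was small. The first experiment was highest and the third lowest in both treatments. The mean level was -1.13 ± 0.92 (SD, n = 3) in DMSO and 0.83 ± 0.83 in TSA. The difference was 1.96 ± 0.58, or 3.89-fold, with an adjusted p of 0.227. Within slides the differences were 1.81, 2.19 and 1.88, and in the fit with slide as a block limma's adjusted p was 0.0310 (standard error 0.19). The call was lost when the arrays were also centred on the median of the ribosomal protein genes, an alternative added after the data were seen (difference 1.90, limma's adjusted p = 0.120 with the block). In that fit 0% of the 14533 tested genes were called, and 19.9% had an unadjusted p under 0.05. A second, much dimmer Rpl39l probe was well above background only on the DMSO and the TSA array of slide 1. It was outside the tested set, and gave 1.72, 1.82 and 0.83 on slides 1, 2 and 3.

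The parent gene Rpl39 was at 7.93, 8.01 and 7.65 in DMSO and 7.75, 8.69 and 7.57 in TSA. The groups overlapped, with only TSA replicate 2 above the DMSO range, and the difference was 0.14 ± 0.33 (95% interval -0.66 to 0.94, adjusted p = 0.879). The log2 ratio of Rpl39l to Rpl39 within an array was higher in TSA by 1.99, 1.51 and 1.96 on the 3 slides (mean 1.82 ± 0.27, SD over slides). The sequences of the probes are not in the files used here, so whether the Rpl39l probe also binds Rpl39 or its processed copies was not tested. The same holds for the rest of the family, whose genes have many near-identical pseudogenes.

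**Figure D2:**
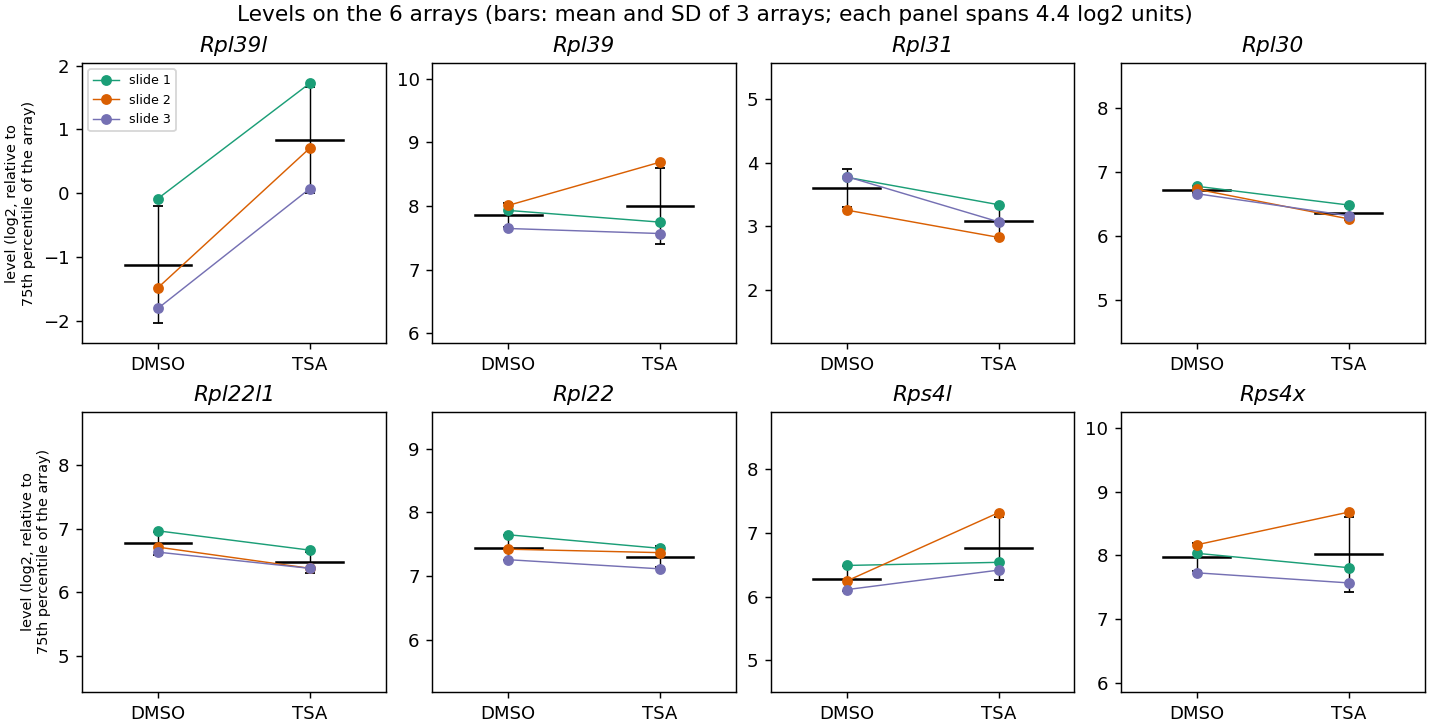
Levels of 8 members (log2 relative to the array's 75th percentile, vertical axis) in DMSO and TSA; points are arrays, coloured by slide and joined within a slide, and black bars give the mean and SD of 3 arrays. Rpl39l is higher in TSA by 1.81 to 2.19 on every slide while Rpl39 is higher on slide 2 alone, and Rpl31, Rpl30 and Rpl22l1 are lower on every slide.

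The other variant paralogs did not pass in either fit. Of 10 listed, 7 were on the array and tested; 0 were called without the block and 1, Rpl39l, with it. Rps4l, which the reference annotates as a transcribed pseudogene of the Rps4 family, had the highest difference of the small subunit group. It was at 6.49, 6.25 and 6.11 in DMSO and 6.54, 7.32 and 6.42 in TSA, with a difference of 0.48 ± 0.29 (adjusted p = 0.600, or 0.360 in the blocked fit). It was higher in TSA on all 3 slides, by 0.05, 1.07 and 0.31, while its parent Rps4x gave 0.04 ± 0.33. Rpl22l1, a paralog of the RNA-binding protein Rpl22, was at 6.97, 6.71 and 6.63 in DMSO and at 6.66, 6.38 and 6.38 in TSA. It was lower in TSA on every slide, by similar amounts (-0.30, -0.33 and -0.25), with a difference of -0.30 ± 0.21 (adjusted p = 0.629). The brighter probe of Rpl22 itself gave -0.14 ± 0.21 and was also lower on all 3 slides, while its dimmer probe gave 0.08 ± 0.23, with -0.03, 0.25 and 0.03 by slide. Of the 31 members with several tested probes, 10 had probes of opposite sign. Rpl7l1 gave 0.16 ± 0.26, Rpl36al 0.08 ± 0.25 and Rps27l, a known p53 target, 0.03 ± 0.24. Rpl3l, a muscle form of Rpl3, lay near background, was well above it on 5 of 6 arrays and gave 0.0032 ± 0.29, with opposite signs on slides 1 and 2 (0.72 and -0.60).

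Among the ordinary members of the large subunit, the lowest differences were those of Rpl31, Rpl30 and Rpl4. Rpl31, at the rim of the exit tunnel, was at 3.77, 3.25 and 3.78 in DMSO and 3.34, 2.83 and 3.07 in TSA. It was lower in TSA within every slide, by 0.43, 0.43 and 0.71, although DMSO replicate 2 lay below TSA replicate 1. The difference was -0.52 ± 0.25 (95% interval -1.12 to 0.08, adjusted p = 0.500, or 0.217 in the blocked fit), and its other probe gave -0.52 ± 0.29. Rpl30, a small RNA-binding protein of the large subunit, was at 6.78, 6.73 and 6.66 in DMSO and 6.48, 6.27 and 6.32 in TSA. All TSA arrays were below all DMSO arrays, with a difference of -0.37 ± 0.19 (95% interval -0.82 to 0.08, adjusted p = 0.521). Rpl4, whose long loop reaches into the tunnel wall, was at 4.86, 5.001 and 4.82 in DMSO and 4.67, 4.79 and 4.67 in TSA. Its groups did not overlap either, with a difference of -0.18 ± 0.19 (adjusted p = 0.717). In all, 2 members had non-overlapping groups with TSA lower, Rpl30 and Rpl4, and 1 with TSA higher, Rpl39l, against 8.35% and 16.3% of all tested genes.

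The other end of the large subunit was led by genes whose highest array was TSA replicate 2. For Rpl21 the next highest array was DMSO replicate 2. Rpl21 was at 2.37, 3.04 and 2.25 in DMSO and 2.15, 4.28 and 2.38 in TSA, a difference of 0.38 ± 0.59 that came from slide 2 (-0.22, 1.25 and 0.12 by slide). Its dimmer tested probe gave 0.08 ± 0.22, with -0.20, 0.15 and 0.30 by slide. Rpl41, the shortest ribosomal protein, was at 9.17, 9.14 and 8.82 in DMSO and 9.10, 10.01 and 8.83 in TSA (0.27 ± 0.34, adjusted p = 0.767). Rpl37a gave 0.26 ± 0.37. The proteins of the stalk, which recruits elongation factors, lay close together at 0.24 ± 0.35 for Rplp0, 0.17 ± 0.39 for Rplp1 and 0.21 ± 0.35 for Rplp2. Of the proteins that bind the small RNA of the central protuberance and hold back the p53 ligase Mdm2 when assembly fails, Rpl5 gave -0.07 ± 0.20 and Rpl11 0.20 ± 0.30. Of the 8 listed proteins at the tunnel exit, 0 were called and the median was 0.09; Rpl26 was highest at 0.24 ± 0.28. Rpl10, which joins the large subunit late, gave -0.0045 ± 0.31 and Rpl38, known for its part in the translation of Hox messages, 0.20 ± 0.32.

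Small subunit genes spanned a narrower range, from -0.10 to 0.48. Among the lowest were Rps29 (-0.10 ± 0.26), Rps27a, which is made as a fusion with ubiquitin (-0.09 ± 0.23), and Rps24 (-0.07 ± 0.21). Below Rps4l the highest were Rps10 (0.31 ± 0.30), Rps14 (0.25 ± 0.36) and Rps18 (0.25 ± 0.35). Rps10 was at 7.51, 7.26 and 7.18 in DMSO and 7.41, 8.21 and 7.27 in TSA, again with TSA replicate 2 alone above the DMSO range. The proteins at the mRNA entry gave 0.25 ± 0.35 for Rps2, 0.11 ± 0.36 for Rps3 and -0.03 ± 0.23 for Rps9. Rpsa, also known as a laminin receptor, gave 0.21 ± 0.27, and Rps6, the target of the S6 kinases, 0.01 ± 0.25. Of 18 genes mutated in Diamond-Blackfan anaemia, a failure of red cell production, 0 were called and the median was 0.10; Rps19, the first of them to be known, gave -0.03 ± 0.24 and Rps25 outside that list 0.04 ± 0.27.

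**Figure D3:**
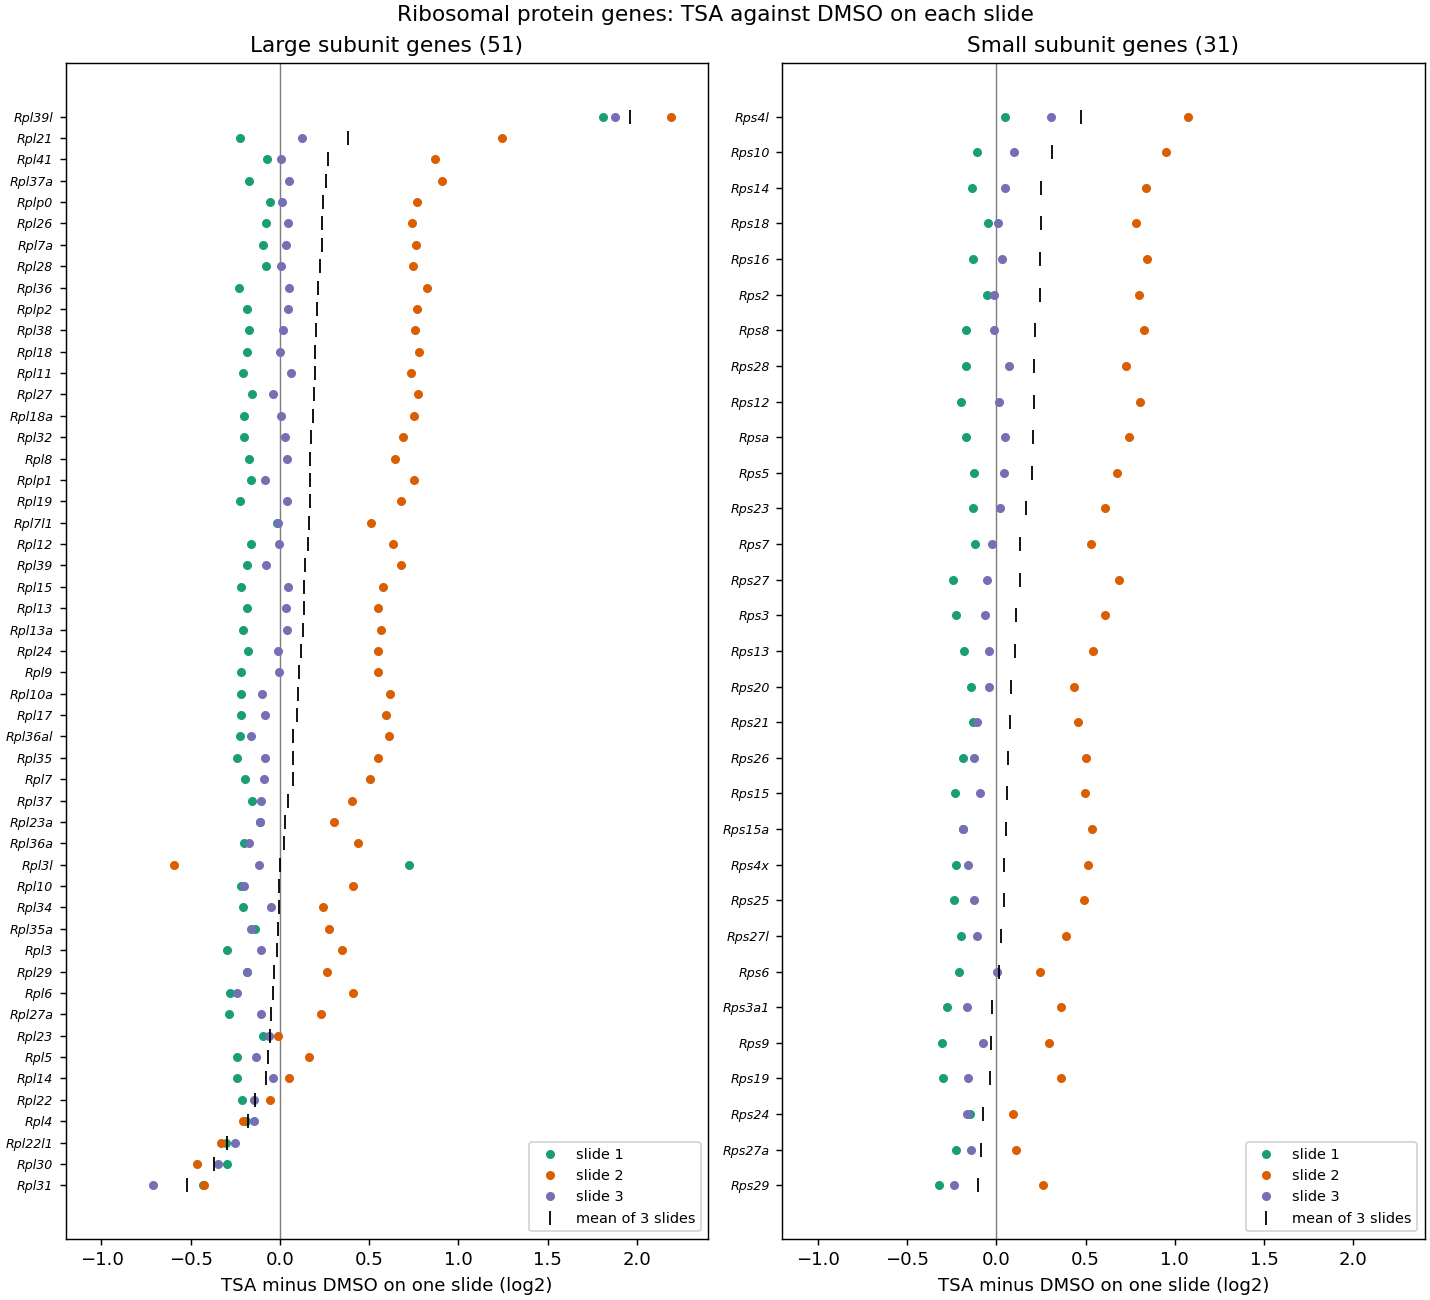
TSA minus DMSO (log2, horizontal axis) for 51 large and 31 of the 32 small subunit genes, ordered by the mean of 3 slides (black ticks); coloured points are slides 1, 2 and 3. Slide 2 lies to the right of the other slides for most members, and Rpl39l alone has all 3 slides above 1.

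The family moved largely in step on each slide, and the slides differed from each other. The median difference was -0.19, 0.55 and -0.05 on slides 1, 2 and 3 over the 84 genes, against -0.03, 0.31 and 0.03 over all tested genes. On slide 1, 3 of 84 members were above 0 (Rpl39l, Rps4l and Rpl3l), and on slide 2, 77 were. The quartiles of the members on slide 1 lay 0.08 apart, against 0.63 for all tested genes, and on slide 3 0.15 apart, against 0.46. On slide 2 they lay 0.41 apart, against 1.01. A narrow spread was not particular to the family: for the 78 mitochondrial ribosomal protein genes the quartiles lay 0.28, 0.41 and 0.21 apart on slides 1, 2 and 3. Only 2 members, Rpl39l and Rps4l, were higher in TSA on all 3 slides, where 32.5% of all tested genes were. Lower on all 3 slides were 6, namely Rpl31, Rpl30, Rpl22l1, Rpl4, Rpl22 and Rpl23, against 21.5% of all tested genes. The brightest probe of Rpl23 gave -0.06 ± 0.20 and its dimmer probe -0.42 ± 0.34, the widest gap between tested probes of a member.

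Much of the spread came from TSA replicate 2, which was the highest of the 6 arrays for 69 members. The median SD over 3 arrays was 0.20 in DMSO and 0.48 in TSA. That array had a 75th percentile of 310 intensity units, against 632 to 924 on the others, and its added control RNAs lay at 3.05 relative to that percentile, against 0.99 to 1.57. The 28 brightest members had a slide 2 median of 0.75 and the 28 dimmest 0.38. The 70 other tested genes at least as bright as the family's lower quartile had medians of -0.18, 0.61 and -0.01 on the slides. The part of signal strength in the family's slide 2 value was not tested. Without TSA replicate 2 the median was -0.14 for the large and -0.15 for the small subunit.

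**Figure D4:**
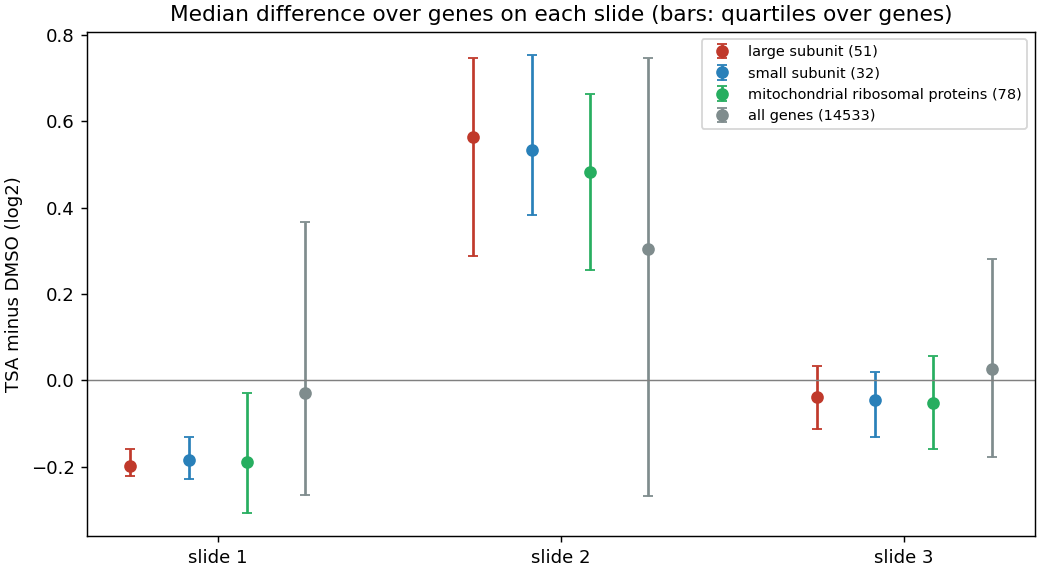
Median TSA minus DMSO difference (log2, vertical axis) on each slide for genes of the large subunit, the small subunit, mitochondrial ribosomal proteins and all tested genes; bars run from the lower to the upper quartile over genes. The large and small subunit medians lie close together on every slide, at -0.20 and -0.18, 0.56 and 0.53, and -0.04 and -0.05.

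Large and small subunit genes had nearly equal medians. Over all arrays the median was 0.12 for the 51 large and 0.10 for the 32 small subunit genes, beside 0.08 for all tested genes. The large minus small difference was 0.03, and -0.01, 0.03 and 0.0075 on slides 1, 2 and 3 (SD over slides 0.02). The sign of the subunit medians depended on the scaling. It was negative for both subunits with quantile normalization (-0.01 and -0.03) and with normexp background correction before it (-0.02 and -0.05). In the authors' table it was negative too (-0.06 and -0.09), and with median centring it was positive (0.04 and 0.02). All tested genes had medians of 0.04, 0.03, 0.03 and 0.0040 in these settings, in the same order. Both subunits thus lay below all tested genes where their medians were negative, and above them with median centring. No direction is therefore given for the family. In the fit without the slide block, the 95% intervals of 83 of the 84 members included 0 and those of 66 lay within a 2-fold change either way. The median width over the 84 was 0.70 to each side.

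Among ribosomal proteins with other names, Fau gave 0.20 ± 0.31 and Rack1 0.25 ± 0.34. Of 78 mitochondrial ribosomal protein genes, which serve the separate ribosomes of mitochondria, 0 were called and the median was 0.06, with slide medians of -0.19, 0.48 and -0.05. Their extremes were Mrps24 (0.66 ± 0.27, adjusted p = 0.405) and Mrpl50 (-0.36 ± 0.41). Among 15 elongation factor and other TOP message genes 0 were called (median 0.03), from Npm1, a nucleolar chaperone, at -0.43 ± 0.26 to the translocation factor Eef2 at 0.44 ± 0.47. Tpt1, a classic TOP message, was lower on all 3 slides (-0.33, -0.38 and -0.20), at -0.30 ± 0.19 (adjusted p = 0.603).

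Genes that build and drive ribosomes were not called either. Of 63 ribosome assembly factors 0 were called, with a median of -0.04; on all 3 slides, 22 lay below 0 and 3 above, where 21.5% of all tested genes lay below and 32.5% above. The lowest were Gnl3, the nucleolar protein nucleostemin, at -0.67 ± 0.40 and Dkc1, the pseudouridine synthase dyskerin, at -0.66 ± 0.34 (adjusted p = 0.593 and 0.534). Of 44 initiation factors 0 were called, with a median of -0.03, and 14 lay below 0 and 3 above on all 3 slides, to be read against the same shares. Eif2s2, a subunit of the factor that brings the initiator tRNA, gave -0.98 ± 0.50 (adjusted p = 0.523). The 31 tested genes of RNA polymerases I and III had a median of 0.03 and 0 calls. Among 20 regulators 0 were called, with a median of 0.02, and 10 lay above 0 and 10 below. On all 3 slides, 4 regulators were higher and 6 lower, to be read against the same shares. Mycn, a driver of ribosome production in stem cells, gave 0.39 ± 0.27 and was higher on all 3 slides. Rps6ka1, a kinase excluded from the family by its name, gave 0.70 ± 0.23 (adjusted p = 0.272). The ETS factor gene Gabpa gave -0.65 ± 0.51, with -0.12, -1.69 and -0.14 by slide. Of 9 genes of the p53 response 0 were called; Mdm2 gave -0.67 ± 0.39 and Cdkn1a, the inhibitor p21, 0.66 ± 0.27 (adjusted p = 0.416). By unadjusted p under 0.05, these lists held 2 mitochondrial ribosomal, 2 initiation, 1 assembly, 1 regulator and 1 p53 response gene, against 14.9% of all tested genes. In the blocked fit each of these lists again had 0 calls. There the unadjusted counts were 3 mitochondrial ribosomal, 4 initiation, 3 assembly, 1 polymerase, 1 regulator and 1 p53 response gene, against 22.9% of all tested genes.

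The labelled cell state was checked against markers. All 6 pluripotent cell markers and 5 of 6 neural progenitor markers were well above background on all arrays, as were 5 of 6 each of the primitive streak, endoderm and fibroblast lists. The log2 of the summed signal of the streak markers was 1.77, 3.46 and 1.77 in DMSO and 3.43, 5.41 and 3.25 in TSA, so it was higher in TSA on every slide. Rpl39l was too, as were 32.5% of all tested genes. In both treatments the streak sum was highest on slide 2 and Rpl39l on slide 1. The fibroblast markers summed to 3.00, 2.43 and 2.63 in DMSO and 3.67, 3.91 and 3.40 in TSA, although 2 of the 6 genes were lower in TSA on all 3 slides. In limma 0 genes of either list were called without the block (unadjusted p under 0.05 in 4 of each). With the block 4 of 6 streak markers and 1 of 6 fibroblast markers were called higher, against 3.20% of all tested genes. Limma's unadjusted p was under 0.05 for 14.9% of all tested genes without the block and for 22.9% with it. The other sums were lower in TSA on every slide, although their genes were split. On all 3 slides, 2 of 6 pluripotent genes were higher in TSA and 2 lower. Of 5 tested neural genes 2 were higher and 3 lower, and of 6 endoderm genes 2 were higher and 1 lower. Neural progenitor markers summed to 3.22, 3.27 and 3.04 in DMSO and 2.88, 3.02 and 2.67 in TSA. Pluripotent cell markers summed to 5.33, 5.66 and 4.67 in DMSO and 5.23, 5.004 and 4.61 in TSA, and endoderm markers to 0.70, 4.02 and 1.96 in DMSO and 0.47, 3.84 and 1.35 in TSA. None of these 3 lists had a call in either fit; unadjusted p was under 0.05 for 1 pluripotent and 1 neural marker without the block and for 2 and 1 with it. The part of cell composition in the Rpl39l difference was not tested.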

How the data were processed

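Each of 6 single-colour Cy3 arrays gave intensity values from Agilent Feature Extraction (version 10.7 per the submitters' processing notes). Per the file headers, the deposited processed signal was background-subtracted and detrended within the array, without scaling across arrays. A deposited table of the series has log2 values by the authors, whose normalization is not given in the sources used here; it served as an alternative. Array annotation and reference table follow different genome builds, so positions are given only for promoter sequences.

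Control spots and outlier spots (57 to 84 per array) were left out, and log2 of the processed signal minus the array's 75th percentile was averaged over the spots of a probe. Probes well above background on at least 3 of 6 arrays (28166) were tested with limma 3.58.1 in R 4.3.3 (lmFit and eBayes, two-sided). The p-values of all tested probes were adjusted together by the Benjamini-Hochberg method. Genes were named through RefSeq identifiers (27484 probes had 1 gene, 13690 had no named gene) and are given by their tested probe with the highest mean. The slide is the replicate number. Deviations of same-slide arrays from their group means correlated at 0.484, 0.614 and 0.585, so the replicate numbers are taken as pairs; blocked values appear where a call changes. Per the series' design the samples of a treatment are independent experiments; 3 arrays per group limit the precision. The fit without the block was tested on simulated arrays drawn without slide effects, so the blocked fit was not tested in this way. Tables and plots used pandas 2.3.3, numpy 2.4.6 and matplotlib 3.10.9 under Python 3.11.15.

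The members, lists and tests were chosen with earlier results of these data known. Named genes are members called in either fit, the 4 highest and 4 lowest of each subunit above background on all arrays, the variant paralogs with their parents, genes of fixed ribosome sites and functions, the members whose probes disagree most, and the extremes of each related list; some are not reported here. Alternatives were normexp (offset 50) on median signals, quantile normalization, median centring, the table by the authors, a stricter filter or none, slide as a block, trended moderation, outlier spots kept, array weights, each array or slide left out, each slide alone and the mean over probes. Centring on the ribosomal protein median, array weights with the block, slide 2 left out with the block, and medians without variant paralogs were added after seeing the data.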

Additional observations from a re-analysis of the deposited data

How the results depend on the processing

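No member was called in any fit without the slide block, and Rpl39l was the 1 member called with the slide as a replicate block. The same held with array weights and the block (limma's adjusted p = 0.00615), and without slide 2 with the block (adjusted p = 0.0136). Both of these fits were added after seeing the data. They called 4119 and 2967 of the 28166 tested probes, against 659 with the block alone. With so many probes called, 1 call among 84 members does not set the family apart, and these fits give the Rpl39l call no added weight. The variant paralog count went from 0 to 1 with the block. With the block, calls also went from 0 to 4 among primitive streak markers and from 0 to 1 among fibroblast markers; no other list gained a call. Over its alternatives Rpl39l ranged from 1.33 to 2.48 with adjusted p from 0.00615 to 0.593; centred on the ribosomal protein median its adjusted p was 0.288, and 0.120 with the block. The number of called probes moved most: 269 in the reported fit, 146 with normexp and quantile normalization, 156 with quantile normalization alone, 144 with median centring, 149 in the authors' table, 56 without a filter, 659 with the slide block, 2991 with array weights, 4119 with weights and the block, 0 without slide 2, 2967 without slide 2 with the block, and 77 and 0 when arrays were centred on the ribosomal protein median, without and with the block. Leaving out 1 array gave 0 to 626 called probes, the 626 without TSA replicate 2, and 0 without any 1 of the other 5. The large subunit median was 0.56 and the small subunit median 0.53 on slide 2 alone, and large minus small was -0.0142 on slide 1 alone. Leaving out 1 array gave -0.14 to 0.30 for the large and -0.15 to 0.29 for the small subunit; the other alternatives moved the medians by less than the SD over slides (0.40 and 0.38). Rpl31, Rpl30, Rpl22l1, Rpl4 and Rpl22 were below 0 in every one of 19 alternatives run on each, without passing. Some of these, such as the slide block and trended moderation, return the same difference as the reported fit, so the sign could not change there. Array weights, whose estimation stopped before full convergence, gave subunit medians of -0.20 and -0.22 and moved the median of all tested genes by -0.11. The cause of these changes was not tested. For dim probes such as Rpl3l and the second Rpl39l probe, signal over background limits what can be read.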
